A study of Mus musculus with 6 samples.

Results

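The insulin, PI3K, AKT and FoxO signalling genes were described in peritoneal cells, by the paper mostly macrophages, labelled as wildtype (WT) or FOXO3 knockout (KO). This set holds 39 of the 54648 gene symbols in the deposited table, and its members were chosen by name and matched by symbol. All 39 had a count in at least 1 library, and 37 passed edgeR's filter on low counts in each comparison. The 2 members left out by the filter were Irs1, with 1 to 12 counts in a library, and Foxo6, with 0 to 5.

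Insulin and insulin-like growth factor 1 (IGF-1) bind receptor tyrosine kinases, whose adaptors recruit phosphoinositide 3-kinase (PI3K). PI3K makes the membrane lipid PIP3, which brings the kinases PDK1 and AKT together, and AKT then acts on the TSC complex, on GSK3 and on the FoxO transcription factors. Phosphorylated FoxO proteins are bound by 14-3-3 proteins and kept out of the nucleus, so FoxO activity is set largely on the protein, while the insulin receptor, Irs2 and other pathway genes are known FoxO targets in several tissues. In macrophages the same lipid signal also follows chemokine and Fc receptors through the leukocyte forms of PI3K.

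Bulk RNA was sequenced from 3 samples of peritoneal cells labelled WT and 3 labelled FOXO3 KO, from mice all of strain C57BL/6, aged 6 to 8 weeks and fed standard chow. Every mouse, WT included, had received 3% thioglycollate in the abdomen, an irritant that draws in monocytes, and the cells were taken after 4 days with no sort of cell types stated. WT and FOXO3 KO were homozygous littermates told apart by genotyping, and the study used male and female mice without stating the sex of each. Libraries, named WT 1 to 3 and FOXO3 KO 1 to 3, were read from both ends in 76 bp reads.

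Library totals lay between 28083393 and 36424117 counts, and levels are in CPM, the count over the TMM-scaled library size. The 12 macrophage markers, which include Adgre1, Csf1r and Lyz2, were measured in every library, and their summed level was 15068 to 19842 CPM in WT and 16673 to 18711 CPM in FOXO3 KO. A pair of libraries stood apart. The library labelled FOXO3 KO 2 had Foxo3 at the WT level, so each result is given over all 6 libraries and again without it. WT 3 had the lowest correlations of log2 expression with the other libraries (Pearson's r across genes 0.929 to 0.956, against 0.986 to 0.994 among the others) and a B cell marker sum of 3601 CPM, against 198 to 822 CPM in the other 5.

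FOXO3 KO was set against WT in edgeR (quasi-likelihood test), and p was adjusted by the Benjamini-Hochberg method across every gene tested. Differentially expressed genes (DEGs) had to pass a 1.5-fold change and an adjusted p of 0.05. No member was a DEG over all 6 libraries, where 0% of 15608 genes were called, or without the library labelled FOXO3 KO 2, where 0% of 16217 genes were called. The smallest adjusted p of a member from edgeR was 0.765 over all 6 libraries and 0.105 without the library labelled FOXO3 KO 2. DESeq2, run as an alternative, called 0 members over all 6 libraries (0.956% of all genes) and 1 member, Foxo3, without the library labelled FOXO3 KO 2 (0.503% of all genes). At an unadjusted p under 0.05 from edgeR over all 6 libraries, 0 members were higher in FOXO3 KO (4.04% of all genes) and 1 was lower, Foxo4 (1.65% of all genes). Without the library labelled FOXO3 KO 2, 0 members were higher (3.05% of all genes) and 4 were lower at that p, Foxo3, Foxo4, Igf1r and Irs2 (1.26% of all genes). Foxo3 is among these 4 and is called by DESeq2 by design, since it was targeted and that library was set apart for its Foxo3 level.

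**Figure D1:**
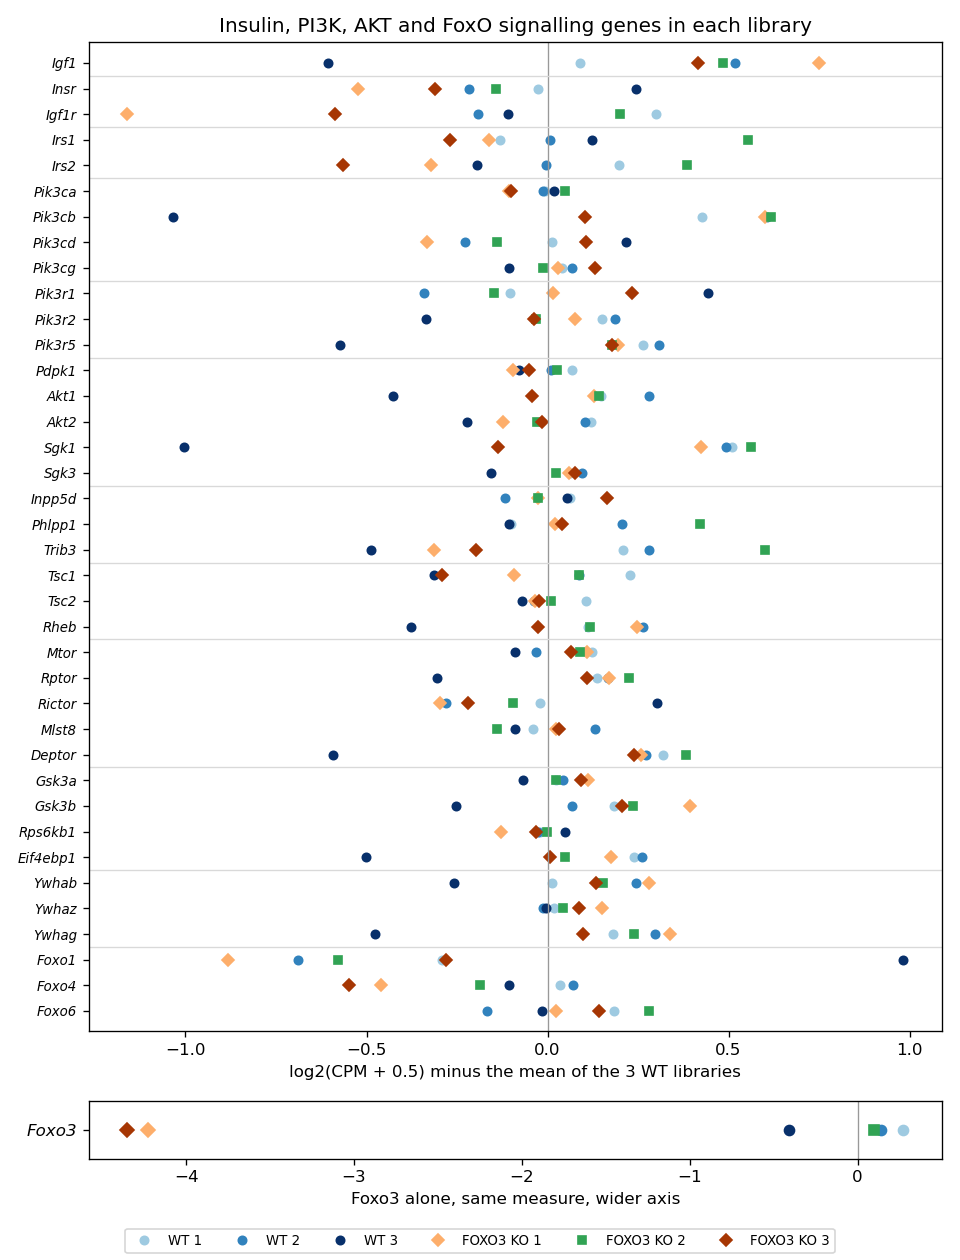
Each row is a member and each point a library, placed at log2(CPM + 0.5) minus the mean of the 3 WT libraries, with Foxo3 on a wider axis of its own and rows grouped by role. Most points lie within 0.5 of the WT mean, WT 3 sits at the left end for many rows, and Foxo3 is low in FOXO3 KO 1 and 3 but not in FOXO3 KO 2.

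Foxo3 encodes the forkhead factor targeted in these mice and lies at chr10:42181841-42276755 on the minus strand (mm10). Its level was 117, 107 and 72.9 CPM in WT 1, 2 and 3, against 4.71, 104 and 4.28 CPM in FOXO3 KO 1, 2 and 3. In counts these were 4231, 3023 and 2615, and 133, 2847 and 143. FOXO3 KO 1 and 3 thus kept 4.55% of the WT mean, while the library labelled FOXO3 KO 2 had 105% of it and lay inside the WT range. FOXO3 KO over WT gave a log2 fold change of -1.40 (SE 1.22, edgeR adjusted p = 0.859) over all 6 libraries and -4.46 (SE 0.29, edgeR adjusted p = 0.105) without the library labelled FOXO3 KO 2. The same -4.46 passed DESeq2 (adjusted p = 2.04e-38), and over all 6 libraries DESeq2 gave Foxo3 no p because it marked a count as an outlier. The library labelled FOXO3 KO 2 was set apart for its Foxo3 level, so the p of Foxo3 without it is no independent test.

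Foxo4, a FoxO factor encoded on the X chromosome (X:101254528-101260873, plus strand, mm10), was the member whose FOXO3 KO libraries were all below WT. Its level was 35.3, 36.2 and 31.9 CPM in WT 1, 2 and 3, against 24.9, 30.2 and 23.4 CPM in FOXO3 KO 1, 2 and 3. The groups did not overlap, and the library labelled FOXO3 KO 2 lay nearest to WT. Its log2 fold change was -0.40 (SE 0.13, edgeR unadjusted p = 0.0200, adjusted p = 0.765) over all 6 libraries and -0.51 (SE 0.13, edgeR unadjusted p = 0.00946, adjusted p = 0.867) without that library. WT 3 and FOXO3 KO 3 were the libraries with high Xist, the RNA that coats the inactive X chromosome. Between those 2 libraries Foxo4 differed by -0.44 on the log2 scale, and among the other libraries it differed by -0.37, or by -0.51 without the library labelled FOXO3 KO 2.

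Foxo1, the FoxO factor best known from liver and lymphocytes, was chosen for full values after they were seen. Its level was 39.3, 29.7 and 95.8 CPM in WT 1, 2 and 3, against 25.9, 32.1 and 39.6 CPM in FOXO3 KO 1, 2 and 3. WT 3 stood above every other library, and without it the remaining WT libraries lay among the FOXO3 KO libraries. In edgeR the log2 fold change was -0.76 (SE 0.45, edgeR adjusted p = 0.843) over all 6 libraries and -0.74 (SE 0.56, edgeR adjusted p = 0.994) without the library labelled FOXO3 KO 2. Leaving out WT 3 from the 6 moved it to -0.07. The B cell markers summed to 822, 444 and 3601 CPM in WT 1, 2 and 3, against 198, 389.7 and 761 CPM in FOXO3 KO 1, 2 and 3. All 8 of them were lower in FOXO3 KO, none was at 0 in every library, and their part in the level of Foxo1 was not tested. In such bulk samples, fewer cells of a type and less RNA per cell cannot be told apart. An exon of the gene Gm20402 overlaps Foxo1 on the opposite strand, and whether counting used strand is not given.

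Levels of the FoxO genes were compared per kb of exon, since the genes differ in length. In WT the share of the summed FoxO level was 44.7% ± 10.8 for Foxo3, 33.8% ± 3.29 for Foxo4, 21.4% ± 13.6 for Foxo1 and 0.0823% ± 0.0882 for Foxo6 (SD, n = 3). Foxo3 was the largest share in WT 1 and 2 (51.3% and 50.5%) and in the library labelled FOXO3 KO 2 (52.4%), and in WT 3 Foxo1 held 37.0%, Foxo3 32.2% and Foxo4 30.7%. The summed level was 30.2, 27.9 and 29.9 CPM per kb in WT 1, 2 and 3, and 10.8, 26.1 and 11.9 CPM per kb in FOXO3 KO 1, 2 and 3. In FOXO3 KO 1 and 3 Foxo4 held 66.2% and 56.4% of it and Foxo3 5.77% and 4.75%. Neither Foxo1 nor Foxo4 had a higher mean level in FOXO3 KO than in WT.

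**Figure D2:**
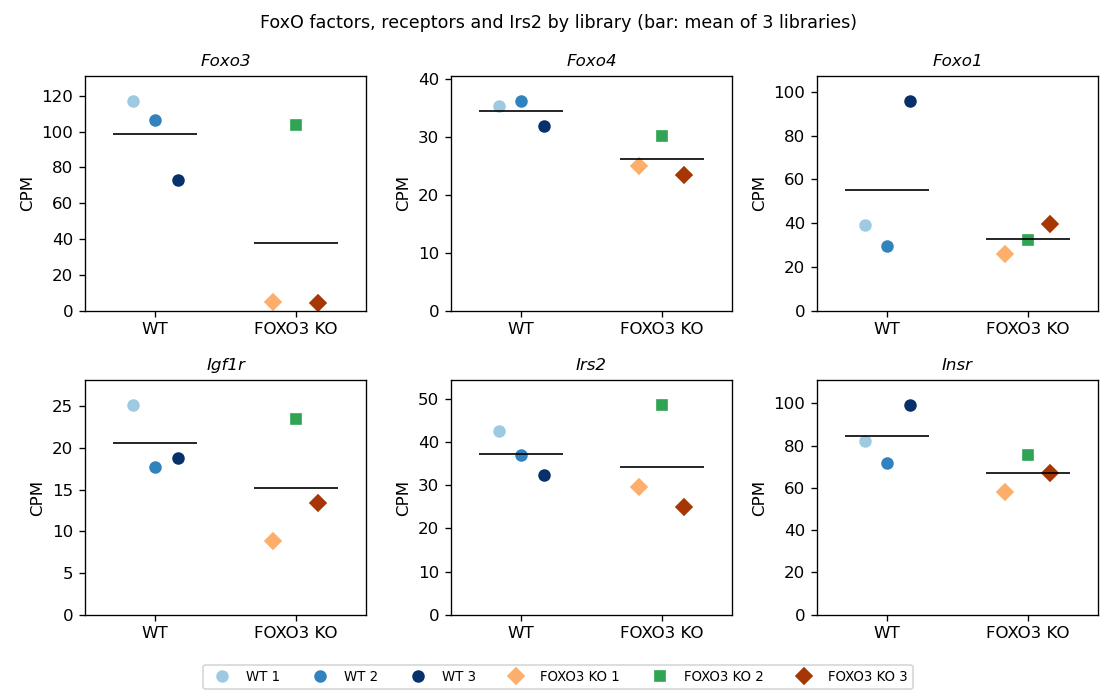
CPM of Foxo3, Foxo4, Foxo1, Igf1r, Irs2 and Insr in each library of WT and FOXO3 KO, each panel from 0, with a bar at the mean of 3 libraries. FOXO3 KO 1 and 3 lie below every WT library for Foxo3, Foxo4, Igf1r, Irs2 and Insr, and the library labelled FOXO3 KO 2 does so for Foxo4 alone.

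At the top of the pathway, the ligand gene Igf1 was at 211, 285 and 130.1 CPM in WT 1, 2 and 3, against 334, 278 and 265 CPM in FOXO3 KO 1, 2 and 3. The groups overlapped, with WT 3 the lowest library and FOXO3 KO 1 the highest. The log2 fold change was 0.49 (SE 0.29, edgeR adjusted p = 0.843) over all 6 libraries and 0.52 (SE 0.35, edgeR adjusted p = 0.994) without the library labelled FOXO3 KO 2. Leaving out WT 3 from the 6 moved it to 0.25, and leaving out WT 2 moved it to 0.78.

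The IGF-1 receptor gene Igf1r (chr7:67952827-68233668, plus strand, mm10) was at 25.1, 17.7 and 18.8 CPM in WT 1, 2 and 3. It was at 8.82, 23.4 and 13.4 CPM in FOXO3 KO 1, 2 and 3, so FOXO3 KO 1 and 3 lay below every WT library and the library labelled FOXO3 KO 2 inside the WT range. FOXO3 KO over WT gave a log2 fold change of -0.44 (SE 0.36, edgeR adjusted p = 0.856) over all 6 libraries. Without the library labelled FOXO3 KO 2 it was -0.89 (SE 0.27, edgeR unadjusted p = 0.0203, adjusted p = 0.987), and FOXO3 KO 1 and 3 averaged 54.0% of the WT mean. With the Xist split as a covariate and without that library, Igf1r passed the threshold in DESeq2 (log2 fold change -0.92, DESeq2 adjusted p = 0.0447). That DESeq2 fit was added after the data were seen and called 725 of 15896 genes. In edgeR with the same covariate Igf1r did not pass (-0.93, edgeR adjusted p = 0.213).

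The insulin receptor gene Insr was at 82.0, 71.9 and 99.0 CPM in WT 1, 2 and 3, against 58.0, 75.7 and 67.2 CPM in FOXO3 KO 1, 2 and 3. As for Igf1r, FOXO3 KO 1 and 3 lay below every WT library and the library labelled FOXO3 KO 2 lay among them. Its log2 fold change was -0.33 (SE 0.16, edgeR adjusted p = 0.839) over all 6 libraries and -0.43 (SE 0.18, edgeR adjusted p = 0.994) without that library. Per kb of exon, Insr held 84.1% of the summed level of the 2 receptor genes over all libraries and between 79.8% and 88.9% in each.

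Irs2 encodes the adaptor that couples these receptors to PI3K, and lies at chr8:10984681-11008458 on the minus strand (mm10). Its level was 42.5, 37.0 and 32.3 CPM in WT 1, 2 and 3, against 29.5, 48.6 and 24.9 CPM in FOXO3 KO 1, 2 and 3. The library labelled FOXO3 KO 2 was the highest of the 6, and FOXO3 KO 1 and 3 were the lowest. In edgeR the log2 fold change was -0.12 (SE 0.26, edgeR adjusted p = 0.926) over all 6 libraries and -0.45 (SE 0.17, edgeR unadjusted p = 0.0457, adjusted p = 0.994) without that library. Irs1, the sister adaptor, gave 0.280% of the summed Irs level per kb, so nearly all measured Irs RNA in these cells was Irs2. An exon of the gene 9530052E02Rik overlaps Irs2 on the opposite strand, and whether counting used strand is not given in the sources used here.

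Without the library labelled FOXO3 KO 2, 7 of the 37 members had both FOXO3 KO libraries below every WT library (9.26% of all genes). These were Foxo3, Foxo4, Igf1r, Insr, Irs2, the PI3K subunit gene Pik3ca and Rps6kb1, which encodes the S6 kinase downstream of mTOR. For 6 of these 7, all but Foxo4, the library labelled FOXO3 KO 2 did not lie below every WT library. The share among all genes with FOXO3 KO 1 and 3 below WT was 41.5%. Foxo3 is in the 7 and in the 6 by design, since it was targeted and that library was set apart for its Foxo3 level. In the other direction, 3 members had FOXO3 KO 1 and 3 above every WT library (11.0% of all genes), and for 1 of these, Gsk3a, the library labelled FOXO3 KO 2 did not lie above WT (36.1% of such genes). Over all 6 libraries 1 member, Foxo4, was below every WT library (5.37% of all genes) and 2, Gsk3b and Ywhaz, were above every WT library (7.00% of all genes). The library labelled FOXO3 KO 2 also had the highest summed mesothelial and fibroblast markers, 516 CPM against 104 and 184 CPM in FOXO3 KO 1 and 3 and 52.7 to 81.7 CPM in WT. Of 10 of these 11 markers that were tested, 8 were higher in FOXO3 KO and none of the 11 was at 0 in every library. The neutrophil markers summed to 136 to 224 CPM in WT and to 501, 230.4 and 423 CPM in FOXO3 KO 1, 2 and 3, so FOXO3 KO 1 and 3 were the highest libraries, and all 7 of the 10 that were tested were higher in FOXO3 KO. The part of either cell type in the levels of Igf1r, Irs2 and Insr was not tested.

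FoxO factors bind DNA at the letters GTAAACA, the forkhead core, and insulin-responsive genes carry a related element read here as CAAAACA. Both were looked up on either strand in promoter sequences from RefSeq (GRCm38.p6, 250 bases before to 50 after a transcript start), which held 45 windows for 31 of the 39 members. Sequences of Insr, Sgk3, Deptor, Eif4ebp1, Ywhab, Ywhaz, Foxo4 and Foxo6 were not used here. GTAAACA was in 3.65% of all 32851 windows and in 2 of the 45 member windows, from Akt1 and Pik3cg. CAAAACA was in 6.28% of all windows and in 2 of the 45 member windows, from Irs1 and Irs2. The matches are shown with their neighbouring bases, read 5′ to 3′ on the gene's strand with the motif in capitals (TGTTTAC and TGTTTTG where it lies reversed), and each match is a description of letters and not of binding.
Pik3cg, chr12:32208545-32208574: ttttttcctaaaGTAAACAaatgatcctcc
Akt1, chr12:112675028-112675057: aatctaccctctTGTTTACactcctggtga
Irs1, chr1:82291533-82291562: ggctccgtcacgTGTTTTGctcctctggag
Irs1, chr1:82291454-82291483: gcagccgccgctTGTTTTGgttggggctct
The match in Irs2 began 37 bases before the RefSeq transcript start. Irs2 and Igf1r were the members other than Foxo3 and Foxo4 with an unadjusted p under 0.05 from edgeR without the library labelled FOXO3 KO 2. Over all 6 libraries the unadjusted p from edgeR was 0.667 for Irs2 and 0.274 for Igf1r. The 120 bases before their RefSeq starts are therefore given whole, both on the gene's own strand. Both RefSeq starts lie upstream of the gene positions given above, which are from GENCODE.
Irs2, chr8:11008930-11009049: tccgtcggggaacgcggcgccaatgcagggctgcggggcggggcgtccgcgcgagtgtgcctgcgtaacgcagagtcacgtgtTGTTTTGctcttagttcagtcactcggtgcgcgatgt
Igf1r, chr7:67952137-67952256: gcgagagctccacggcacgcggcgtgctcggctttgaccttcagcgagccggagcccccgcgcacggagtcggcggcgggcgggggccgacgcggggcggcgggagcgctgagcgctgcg
The Igf1r stretch holds neither motif and has 80.0% G and C, against 65.0% for Irs2.

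The catalytic subunits of PI3K transfer phosphate to the lipid, with Pik3cd and Pik3cg the leukocyte forms and Pik3ca and Pik3cb the widely expressed ones. Their log2 fold changes were between -0.12 and 0.30 over all 6 libraries, 2 higher and 2 lower, and between -0.11 and 0.21 without the library labelled FOXO3 KO 2. Per kb of exon Pik3cd held 49.8% of their summed level over all libraries and led in each (43.4% to 61.2%). Pik3cb held 18.8%, Pik3ca 17.1% and Pik3cg 14.4%, and the order of the last pair turns when lengths of the longest transcript are used. The place of Pik3cb also differed by library. It held 7.44% in WT 3, the lowest of the 4, and 15.6% in FOXO3 KO 3, beside 15.7% for Pik3ca. Pik3cb, with the largest fold change of this role, was at 118, 134 and 42.5 CPM in WT 1, 2 and 3, against 133, 134 and 94.0 CPM in FOXO3 KO 1, 2 and 3. Only WT 3 lay below all the FOXO3 KO libraries, and the fold change of 0.30 (SE 0.42, edgeR adjusted p = 0.894) became -0.05 without WT 3. Pik3ca was the steadiest of the 4, between 119 and 133 CPM in the 6 libraries.

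Regulatory subunits hold and stabilise the catalytic ones, Pik3r1 and Pik3r2 for receptor tyrosine kinases and Pik3r5 for the Pik3cg product behind G protein-coupled receptors. Pik3r5 held 56.6% of the summed level per kb of the family, in which the non-member genes Pik3r3 and Pik3r6 were counted as well. It was at 261, 269 and 146 CPM in WT 1, 2 and 3, against 249, 246 and 246 CPM in FOXO3 KO 1, 2 and 3. The FOXO3 KO libraries lay between WT 3 and the other WT libraries, with a log2 fold change of 0.13 (SE 0.24, edgeR adjusted p = 0.911) that became -0.09 without WT 3. Pik3r1 and Pik3r2 had log2 fold changes of 0.00 and -0.02 over all 6 libraries.

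**Figure D3:**
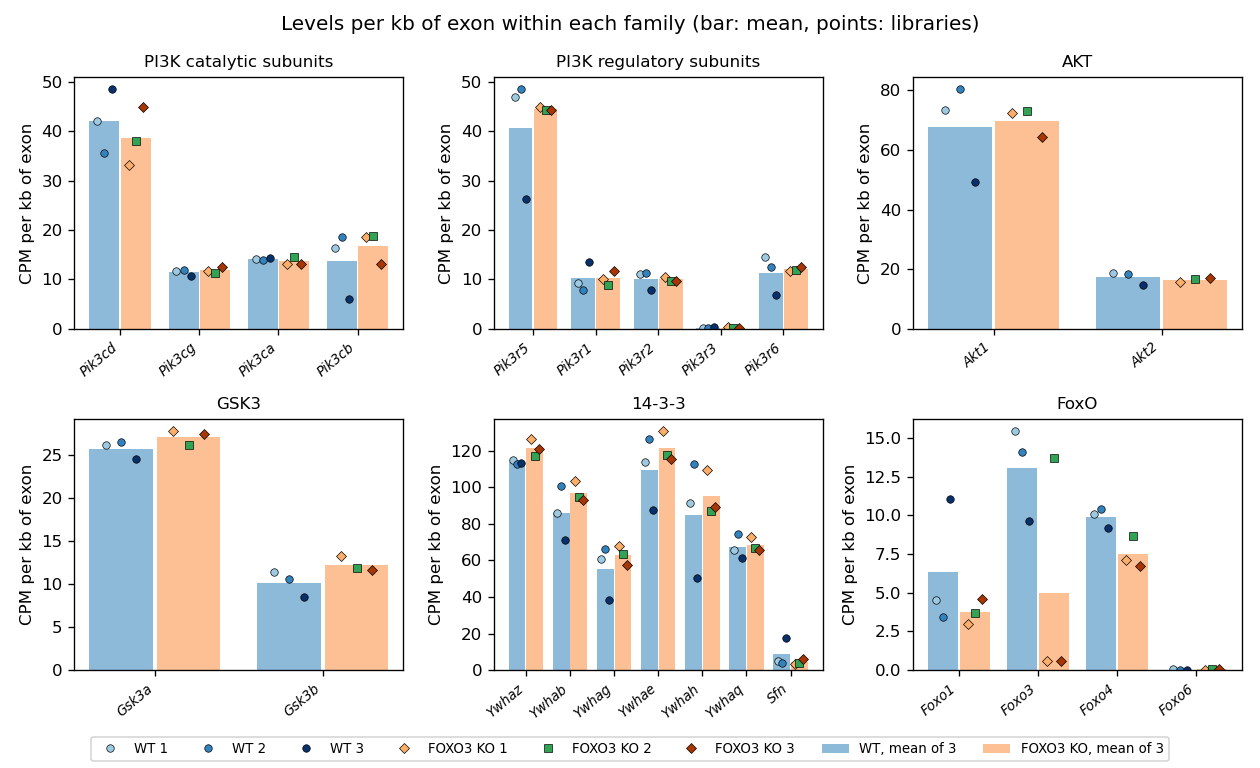
CPM per kb of exon for the PI3K catalytic and regulatory subunits, Akt1 and Akt2, GSK3, 14-3-3 and FoxO genes, with bars at the mean of the 3 WT and 3 FOXO3 KO libraries, points for libraries, and every axis from 0. Pik3cd, Pik3r5, Akt1 and Gsk3a lead their panels in both groups, while in the FoxO panel Foxo3 leads in WT and Foxo4 leads in FOXO3 KO.

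Of the kinases that act downstream of PI3K, Pdpk1 encodes PDK1, and Akt1 and Akt2 encode AKT. Sgk1 and Sgk3 encode related kinases that also phosphorylate FoxO proteins. The 5 had log2 fold changes between -0.06 and 0.16 over all 6 libraries and between -0.08 and 0.07 without the library labelled FOXO3 KO 2. Per kb of exon Akt1 was at 68.8 ± 10.9 CPM and Akt2 at 16.9 ± 1.53 CPM over all libraries (SD, n = 6), and the ranges did not overlap. Sgk1 was at 247, 244 and 86.1 CPM in WT 1, 2 and 3, against 232, 256 and 157 CPM in FOXO3 KO 1, 2 and 3, so the WT 3 and FOXO3 KO 3 libraries were the lowest. Its log2 fold change of 0.16 (SE 0.42, edgeR adjusted p = 0.937) became -0.18 without WT 3. Pdpk1 had a range of 89.5 to 100.4 CPM, with a 95% interval of the log2 fold change from -0.26 to 0.18.

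Among the brakes on PI3K and AKT, Inpp5d encodes SHIP1, the blood cell phosphatase that removes a phosphate from PIP3, Phlpp1 encodes a phosphatase of AKT, and Trib3 a pseudokinase that binds AKT. Inpp5d was at 198 to 240.2 CPM with a log2 fold change of 0.04. Phlpp1 was at 34.1, 42.3 and 33.9 CPM in WT 1, 2 and 3, against 37.1, 49.1 and 37.6 CPM in FOXO3 KO 1, 2 and 3, and the groups overlapped. Its log2 fold change was 0.17 (SE 0.16, edgeR adjusted p = 0.863) over all 6 libraries and 0.02 without the library labelled FOXO3 KO 2, in which it was highest. Trib3 was the scarcest member tested, at 1.45 to 3.65 CPM, and its log2 fold change of 0.06 had a 95% interval from -0.96 to 1.08.

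The TSC complex holds the small GTPase Rheb in check, and Rheb switches on mTOR complex 1. Tsc1, Tsc2 and Rheb had log2 fold changes of -0.11, -0.02 and 0.09 over all 6 libraries. Tsc1 was at 89.0, 80.8 and 61.0 CPM in WT 1, 2 and 3, against 71.2, 80.8 and 62.0 CPM in FOXO3 KO 1, 2 and 3, with every FOXO3 KO library inside the WT range (SE of its log2 fold change 0.17, edgeR adjusted p = 0.904). Tsc2 stayed between 63.8 and 72.3 CPM.

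Mtor encodes the kinase of both mTOR complexes, Rptor and Rictor their defining scaffolds, Mlst8 a shared subunit and Deptor an inhibitor of both. Their log2 fold changes lay between -0.22 for Rictor and 0.24 for Deptor over all 6 libraries, 3 higher and 2 lower, and none passed the test. Deptor was at 65.8, 63.8 and 34.8 CPM in WT 1, 2 and 3, against 63.1, 68.9 and 62.3 CPM in FOXO3 KO 1, 2 and 3, where WT 3 stood alone below the rest (SE 0.24, edgeR adjusted p = 0.869). Without WT 3 its log2 fold change was 0.01. Mtor itself was at 55.1 to 63.9 CPM with a log2 fold change of 0.09 and a 95% interval from -0.14 to 0.31.

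GSK3, encoded by Gsk3a and Gsk3b, is switched off by AKT, while Rps6kb1 and Eif4ebp1 encode the S6 kinase and the translation repressor that mTOR complex 1 phosphorylates. Gsk3b was at 113, 104 and 83.1 CPM in WT 1, 2 and 3, against 130.2, 117 and 114 CPM in FOXO3 KO 1, 2 and 3. Every FOXO3 KO library was above every WT library, with a log2 fold change of 0.27 (SE 0.14, edgeR adjusted p = 0.839) over all 6 libraries and 0.29 (SE 0.18, edgeR adjusted p = 0.994) without the library labelled FOXO3 KO 2. Gsk3a, which held 70.4% of the GSK3 level per kb, had a log2 fold change of 0.08, and Rps6kb1 and Eif4ebp1 had -0.05 and 0.04. Exons of Gsk3a and Rps6kb1 overlap exons on the opposite strand.

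The 14-3-3 proteins hold phosphorylated FoxO in the cytoplasm. Per kb of exon Ywhaz was at 118 CPM and the non-member Ywhae at 115 CPM over all libraries, with overlapping ranges, and the non-member Ywhah led the family when lengths of the longest transcript were used. Ywhaz was at 474, 464 and 466 CPM in WT 1, 2 and 3, against 519, 482 and 498 CPM in FOXO3 KO 1, 2 and 3, so the groups did not overlap although the log2 fold change was 0.09 (SE 0.12, edgeR adjusted p = 0.885), or 0.12 without the library labelled FOXO3 KO 2. Ywhag was at 335, 363 and 212 CPM in WT 1, 2 and 3, against 374, 349 and 316 CPM in FOXO3 KO 1, 2 and 3, with WT 3 apart from the rest and a log2 fold change of 0.19 (SE 0.22, edgeR adjusted p = 0.880) that became 0.00 without WT 3. Ywhab had a log2 fold change of 0.18 and a range of 240.3 to 349 CPM.

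**Figure D4:**
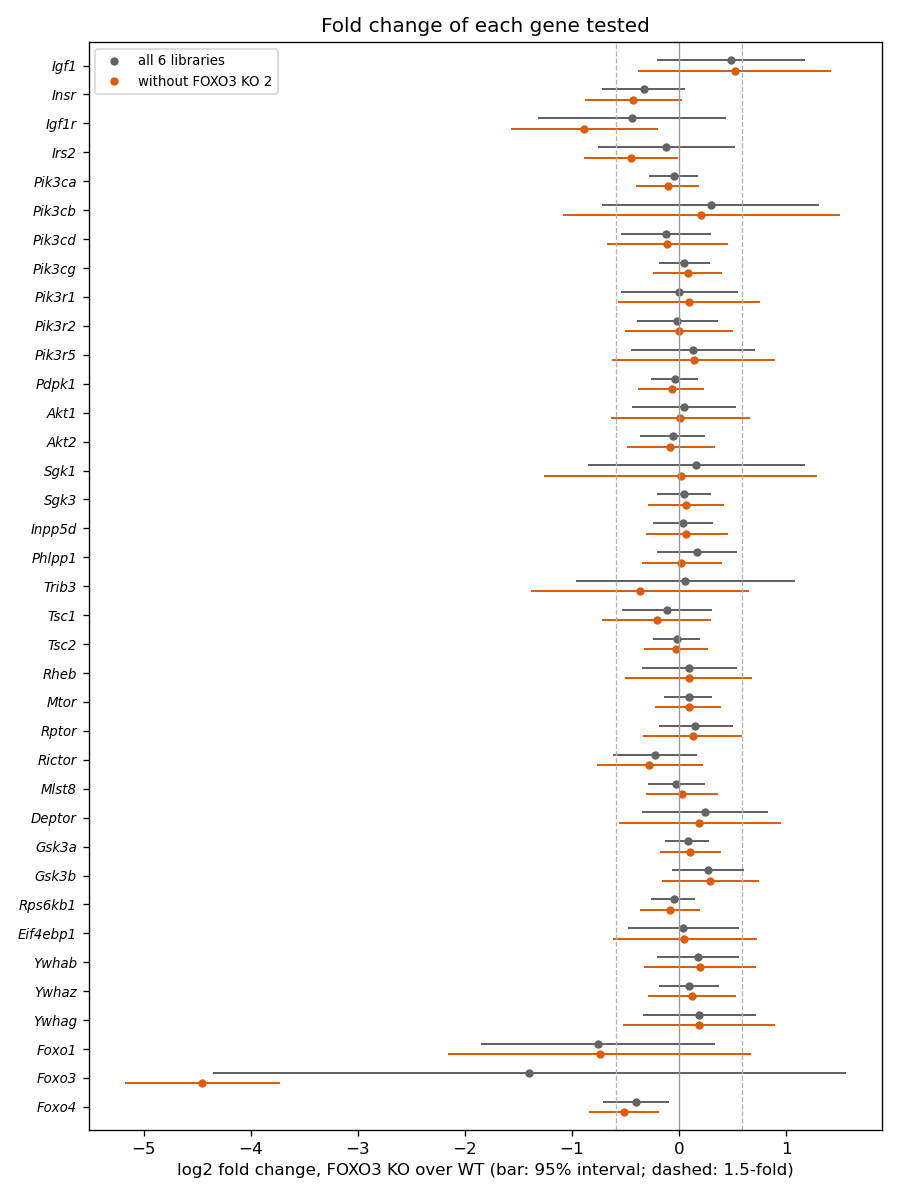
Log2 fold change of FOXO3 KO over WT for the 37 members tested, with points at the edgeR estimate and bars over the 95% interval, in grey over all 6 libraries and in orange without the library labelled FOXO3 KO 2; dashed lines mark a 1.5-fold change either way. The orange interval of Foxo3 lies to the left of every other orange interval, and 22 grey and 14 orange intervals lie between the dashed lines.

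As a set, the 37 members tested had a median of 0.04 in log2 fold change across all 6 libraries, 21 higher and 16 lower, beside -0.01 over all 15608 genes. Without WT 3 it was -0.05, with 13 higher and 24 lower, beside 0.0 over all 15788 genes. There 10 members turned direction, and the share of all genes that turned is not given here. Without the library labelled FOXO3 KO 2 the median was 0.02, 22 higher and 15 lower, beside -0.02 over all 16217 genes. The median size of the change was 0.11 in both comparisons, beside 0.18 and 0.19 over all genes, which include many of lower count. With the same limit, 27 of 37 members were under 0.2 in size over all 6 libraries (73.0%, beside 54.4% of all genes). For 22 of 37 members (59.5%) the 95% interval from edgeR lay within a 1.5-fold change either way over all 6 libraries, beside 37.2% of all genes, which include many of lower count. Without the library labelled FOXO3 KO 2 it did for 14 of 37 (37.8%), beside 25.5% of all genes. For the other 15 members of the 6-library comparison, among them Igf1, Insr, Igf1r, Irs2, Pik3cb, Sgk1, Foxo1, Foxo3 and Foxo4, the interval reached past a 1.5-fold change in both comparisons.

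WT 3 was the highest or lowest of the 6 libraries for 28 of 37 members (75.7%), beside 74.7% of all genes. The libraries with high Xist, WT 3 and FOXO3 KO 3, both lay above the other 4 for 3 members, Foxo1, Pik3cd and Pik3r1, and both below for 10, among them Sgk1, Pik3cb, Akt1 and Deptor. Together these 13 were 35.1% of the members tested, beside 34.9% of all genes. Pik3r1 was at 92.8, 78.6 and 136 CPM in WT 1, 2 and 3, against 101, 90.0 and 117 CPM in FOXO3 KO 1, 2 and 3. Sgk1 in WT 3 was at 0.351 times the mean of the other WT libraries, Pik3cb at 0.338 times, and Foxo1 at 2.78 times. The summed macrophage markers were 15068 CPM in WT 3, the lowest of the 6, against 17031 and 19842 CPM in WT 1 and 2, and the mast cell markers were 829 CPM against 107 to 304 CPM elsewhere. The T cell markers summed to 327 CPM in WT 3 and to 388 to 701 CPM in the others, and no marker of these lists was at 0 in every library. All 8 T cell markers were lower in FOXO3 KO in both comparisons, and none was a DEG. Their median log2 fold change was -0.91 over all 6 libraries and -0.76 without the library labelled FOXO3 KO 2. The T cell sums were 537, 701 and 327 CPM in WT 1, 2 and 3. In FOXO3 KO 1, 2 and 3 they were 556, 527 and 388 CPM, so the groups overlapped. All 8 mast cell markers were lower in both comparisons too, with medians of -0.80 and -0.46. The mast cell sums were 229, 131 and 829 CPM in WT 1, 2 and 3. In FOXO3 KO 1, 2 and 3 they were 214, 107 and 304 CPM, so these groups overlapped as well. The part of other cell types in these levels was not tested.

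**Figure D5:**
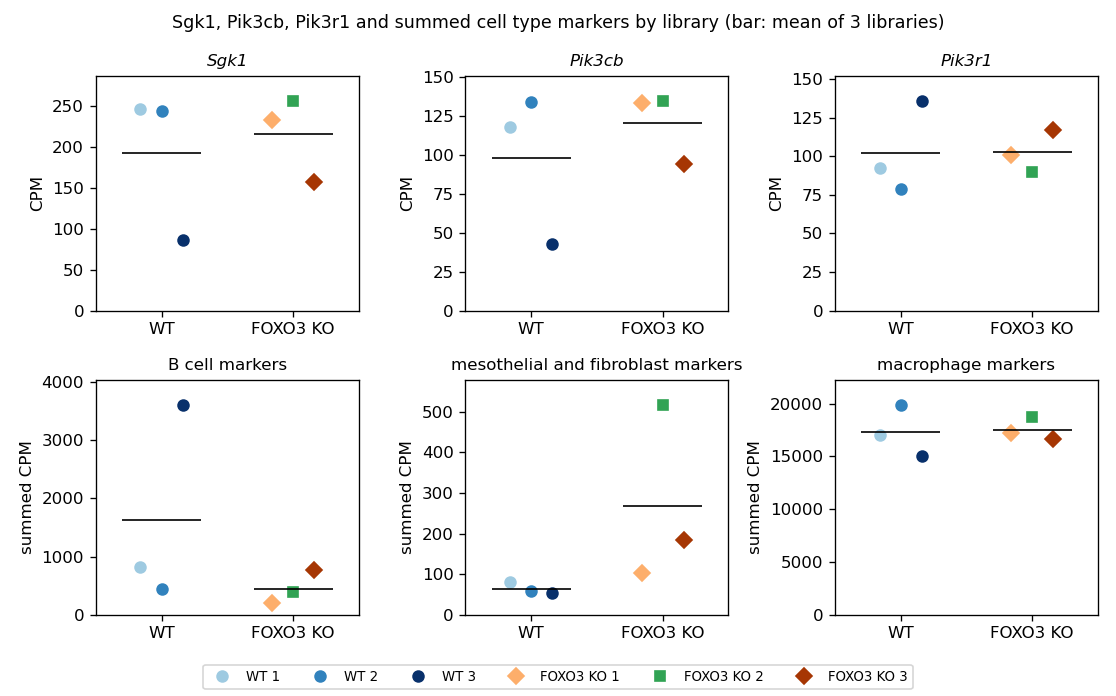
CPM of Sgk1, Pik3cb and Pik3r1 and the summed CPM of B cell, mesothelial and fibroblast, and macrophage markers in each library, every axis from 0, with a bar at the mean of 3 libraries. WT 3 is the lowest library for Sgk1 and Pik3cb and the highest for Pik3r1 and the B cell markers, and the library labelled FOXO3 KO 2 is the highest for the mesothelial and fibroblast markers.

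Other genes of the pathway were read from lists of PI3K genes, mTOR genes and regulators of FoxO proteins. Of 27 other PI3K genes tested, 2 were higher and 0 lower in FOXO3 KO at an unadjusted p under 0.05 from edgeR over all 6 libraries, and 1 was higher and 0 lower without the library labelled FOXO3 KO 2. Of 33 other mTOR genes tested, 0 were higher and 3 lower over all 6 libraries, and 0 were higher and 1 lower without that library. Among all genes tested, 4.04% were higher and 1.65% lower at that p over all 6 libraries, and 3.05% and 1.26% without that library. None of the 16 FoxO regulators and remaining 14-3-3 genes passed at that p in either comparison, and no gene of these lists was a DEG. Grb10, which encodes an adaptor that binds and restrains the insulin and IGF-1 receptors, was at 2.16, 2.08 and 1.78 CPM in WT 1, 2 and 3, against 3.65, 15.4 and 7.27 CPM in FOXO3 KO 1, 2 and 3. The groups did not overlap, with a log2 fold change of 2.12 (SE 0.53, edgeR adjusted p = 0.714) over all 6 libraries and 1.44 (SE 0.37, edgeR adjusted p = 0.874) without the library labelled FOXO3 KO 2. The 3 FOXO3 KO libraries had the same order for Grb10 and for the summed mesothelial and fibroblast markers, whose part in its level was not tested. Sesn1, which encodes a stress-induced inhibitor of mTOR complex 1, was at 127, 119 and 143 CPM in WT 1, 2 and 3, against 93.2, 117 and 97.4 CPM in FOXO3 KO 1, 2 and 3. Here too the groups did not overlap, with a log2 fold change of -0.34 (SE 0.13, edgeR adjusted p = 0.839) and of -0.44 (SE 0.14, edgeR adjusted p = 0.994) without that library.

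A list of 6 pathway genes known as FoxO targets held the members Insr, Irs2, Pik3ca, Rictor and Eif4ebp1 and the non-member Sesn3. Of these 5 were lower and 1, Eif4ebp1, was higher in FOXO3 KO in each comparison. Over all 6 libraries Eif4ebp1 turned direction without WT 3, and Irs2 turned to 0.07 without FOXO3 KO 3. Among all genes, 7985 of 15608 were lower over all 6 libraries and 8498 of 16217 without the library labelled FOXO3 KO 2. WT 3 was the highest library for Insr, Rictor and Sesn3. The median of the 6 genes was -0.17 in log2 fold change across all 6 libraries and -0.35 without the library labelled FOXO3 KO 2. None passed an unadjusted p under 0.05 from edgeR over all 6 libraries, and 1, Irs2, did without that library. Pik3ca was at 128, 127 and 129.7 CPM in WT 1, 2 and 3, against 119, 133 and 119 CPM in FOXO3 KO 1, 2 and 3. Rictor was at 60.6, 50.5 and 75.9 CPM in WT 1, 2 and 3, against 49.99, 57.5 and 52.8 CPM in FOXO3 KO 1, 2 and 3. Eif4ebp1 was at 53.5, 54.3 and 31.8 CPM in WT 1, 2 and 3. In FOXO3 KO 1, 2 and 3 it was at 51.1, 46.7 and 45.4 CPM. Sesn3, a sestrin gene, was at 31.4, 19.4 and 129 CPM in WT 1, 2 and 3, against 15.6, 32.1 and 38.6 CPM in FOXO3 KO 1, 2 and 3, with WT 3 far above the rest, as were the B cell markers, whose part was not tested. Its log2 fold change was -1.06 (SE 0.75, edgeR adjusted p = 0.844).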

How the data were processed

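The authors assigned reads to genes and deposited the estimated counts per symbol for 6 libraries without normalization. The submitters' processing notes name mm10, STAR 2.6.1d, kallisto 0.46.0 and DESeq2 without their roles, and the sources used here give neither the annotation nor the strand setting. Values were rounded to whole counts (81.4% of all values, the many zeros included, were within 0.01 of one before that). Genes were tested with edgeR 4.0.16 in R 4.3.3 (filterByExpr, TMM, glmQLFit, glmQLFTest), and with DESeq2 1.42.0, edgeR's likelihood ratio test and limma-voom (limma 3.58.1) as alternatives, after the scripts were tested on simulated data. Replicates are separate samples in the labels, which do not say that each is a separate mouse, so p-values measure the spread between these samples. The members and the lists were chosen with earlier results of these data known. Full values are given for Foxo3, members with an unadjusted p under 0.05 in either comparison, members whose groups do not overlap, and the member with the largest fold change of each role. Insr and Foxo1 fell outside these rules. Foxo1 was added after its values were seen, and Insr as a FoxO target or after its values were seen. Of the other lists, genes with that p in both comparisons were named. Xist-high libraries were those over 10 CPM. Lengths per kb, gene positions and overlaps came from GENCODE M21 (GRCm38), where all 39 members matched. Positions of promoter sequences came from RefSeq, whose starts can differ from those of GENCODE. Exons of 10 members overlap an exon on the opposite strand: Irs1, Irs2, Pik3r2, Tsc2, Rptor, Mlst8, Deptor, Gsk3a, Rps6kb1 and Foxo1. Counts give limited precision for the scarce Irs1, Foxo6 and Trib3. A gene of the other PI3K list is not reported here.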

Additional observations from a re-analysis of the deposited data

How the results depend on the processing

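Most values of the results followed here kept their direction and their side of the threshold under another setting. The number of DEGs depended on the test. Over all 6 libraries, 17 of the 37 members tested turned direction when some library was left out, and the share of all genes is not given here. The number of DEGs over all 6 libraries was 0 in the main comparison, 166 with DESeq2, 109 with the likelihood ratio test and 423 with DESeq2 and an Xist covariate, a fit added after the data were seen. Without the library labelled FOXO3 KO 2 it was 0, and it became 10 with no filter on low counts, 104 with DESeq2, 77 with the likelihood ratio test, 17 with an Xist covariate in edgeR, 725 with DESeq2 and the Xist covariate, and 0 to 4 with each library left out, 4 without WT 3. Limma-voom called 0 in both comparisons. At an unadjusted p under 0.05, edgeR gave 630 genes higher and 257 lower over all 6 libraries, and 494 and 204 without the library labelled FOXO3 KO 2.

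Among the members, over the 5 libraries, 1 (Foxo3) was a DEG with no filter, DESeq2, the likelihood ratio test and the Xist covariate. Over all genes these fits called 10 of 30848, 104 of 20666, 77 of 16217 and 17 of 16217. Calls of Foxo3 over the 5 libraries are by design, since the library left out was set apart for its Foxo3 level. With DESeq2 and the Xist covariate 2 members were called, Foxo3 and Igf1r (the latter at -0.92), beside 725 of 15896 genes. Leaving out each library gave 0 to 1 member, the 1 being Foxo3 without WT 3, where 4 of 15597 genes were called. The log2 fold change of Foxo3 was -4.45 with no filter, -4.46 with DESeq2 and the likelihood ratio test, -4.35 with the Xist covariate, -4.34 with DESeq2 and that covariate, and -4.64 to -4.33 with each library left out. The members' median was -0.07 to 0.10 with each library left out. It was lowest without WT 3, where 10 members were higher and 27 lower, beside a median of -0.01 over all 15597 genes. Over all 6 libraries 17 of the 37 members tested turned direction when some library was left out, 10 of them without WT 3. Of the 16 members given in full, those with a turned value were as follows. Irs2 ranged from -0.45 to 0.07 (0.07 without FOXO3 KO 3), Pik3cb from -0.05 to 0.59, Pik3r5 from -0.09 to 0.28 and Sgk1 from -0.18 to 0.39 (each lowest without WT 3), Tsc1 from -0.24 to 0.01 (0.01 without WT 1), and Ywhag reached 0.34 and fell to just under 0 without WT 3. The cause was not tested.

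Same-numbered WT and FOXO3 KO samples did not deviate together in every pair (Pearson's r 0.339, -0.0612 and 0.567 for numbers 1, 2 and 3), so the numbers were not taken to pair the samples. With the replicate number as a block, 0 genes were called over all 6 libraries. Without the library labelled FOXO3 KO 2 it called 284 of 16217 genes, among them 1 member, Foxo3 at -4.36. With 3 WT and 2 or 3 FOXO3 KO libraries, the median half-width of the members' 95% intervals was 0.39 on the log2 scale over all 6 libraries and 0.50 without the library labelled FOXO3 KO 2.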
